A study of Mus musculus with 4 samples.

Results

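U1 is a small nuclear RNA (snRNA) gene family, and its members were taken here as all peaks of the YAP ChIP-Seq lists that overlapped a gene named U1 in the GENCODE vM1 annotation of mm9, together with all peaks in the intervals of chromosome 3 from 96.12 to 96.30 Mb and of chromosome 12 from 55.80 to 55.85 Mb. The rule found 19 of the 447 peaks of replicate 1 and 4 of the 154 peaks of replicate 2. The annotation lists 206 genes named U1 among its 37310 genes, and each member peak lay over a single one of them. The family was chosen because it had peaks in these lists, and its members were chosen by the presence and place of the deposited peaks, so the counts, tags and scores below are a description and carry no test.

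The study mapped chromatin bound by YAP, the transcriptional coactivator controlled by the Hippo pathway, in undifferentiated E14Tg2a cells, a mouse ESC line. It comprised 4 samples, 2 of chromatin precipitated with a rabbit polyclonal antibody against Yap and 2 of input chromatin without antibody, from biological duplicates with no other treatment or genotype. The values come from the peak lists of the 2 YAP samples, and no list of the input was analysed here. The list headers name no control library, so each peak was scored against the background of its own library.

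U1 snRNA is the RNA core of the U1 snRNP, the particle that recognises 5′ splice sites by base pairing and also protects nascent transcripts from premature polyadenylation. Functional U1 genes are short, intronless and transcribed by RNA polymerase II from a dedicated promoter, in which the SNAPc complex binds a proximal sequence element (PSE) upstream of the start. Mammalian genomes hold them in several near-identical copies beside many diverged pseudogenes, and the mouse has forms called U1a and U1b, the latter known from embryonic tissue.

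Of the 206 annotated copies, 4 sequences occurred in more than 1 copy, and these are printed first because the peaks lay mostly over copies that carry them. The most frequent had 164 bases and was shared by 7 copies on chromosomes 11 and 12. It is shown from the first copy of chromosome 11, with bases 3 to 11, which pair with the 5′ splice site, in capitals.

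chr11-A, chr11:87236369-87236532, plus strand: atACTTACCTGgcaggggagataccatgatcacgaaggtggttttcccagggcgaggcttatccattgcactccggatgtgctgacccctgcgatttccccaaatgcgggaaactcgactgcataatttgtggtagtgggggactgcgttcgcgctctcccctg

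The other 3 repeated sequences lay on chromosome 3 and differed from it by 6 to 8 edits. In the following lines the capitals mark the bases that differ from the sequence of chromosome 11 or are inserted relative to it.

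chr3-B, chr3:96163876-96164040, minus strand: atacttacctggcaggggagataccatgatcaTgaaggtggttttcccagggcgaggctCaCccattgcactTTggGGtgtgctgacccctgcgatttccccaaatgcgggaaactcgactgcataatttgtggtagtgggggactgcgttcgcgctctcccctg
chr3-G, chr3:96290478-96290642, minus strand: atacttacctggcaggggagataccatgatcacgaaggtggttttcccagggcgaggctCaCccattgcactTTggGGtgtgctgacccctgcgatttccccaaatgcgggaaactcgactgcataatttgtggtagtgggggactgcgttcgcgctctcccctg
chr3-A, chr3:96132348-96132513, plus strand: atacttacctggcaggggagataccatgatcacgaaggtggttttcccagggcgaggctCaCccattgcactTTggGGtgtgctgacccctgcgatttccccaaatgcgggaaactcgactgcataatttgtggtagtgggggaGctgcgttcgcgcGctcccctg

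Copies are named here by their chromosome and a letter in the order along it, counting those with a peak or within the intervals. The RefSeq gene table, built on another assembly, lists Rnu1b1 and Rnu1b2 with 165 bases and Rnu1b6 with 166 on chromosome 3, at the same distances from each other as chr3-B, chr3-C and chr3-F. It also lists Rnu1a1 with 164 bases on chromosome 11, which could be either copy there.

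Identity to the nearest of the 4 sequences ranged from 53.0% to 100% over the 206 copies, with a median of 73.2%. Of the 19 copies with an identity of at least 99%, 18 had a peak in replicate 1. Of the 187 others 1 had a peak, chr19-A with 97.6%. Across all other snRNA genes 2.14% were overlapped by a replicate 1 peak, and across all annotated genes other than U1 the share was 0.730%. Because U1 was chosen for its peaks, nothing is read from this contrast. Within the family the identity of a copy was not part of the rule, but it was not separate from the peak calling. Reads with up to 100 places and 2 mismatches were kept, so a tag may be counted at several near-identical copies. Stretches as long as a tag had a median of 46 places in copies of at least 99% and 1 under 80%. At 90% to 95% the median was 31.5, and 0 of 9 copies had a replicate 1 peak. How far this set the peaks was not tested. All 14 copies with one of the 4 repeated sequences had a peak in replicate 1, and 3 of them also in replicate 2. The first 11 bases with the splice-site pairing segment were intact in all 19 copies with a peak and in 46 copies in all.

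**Figure D1:**
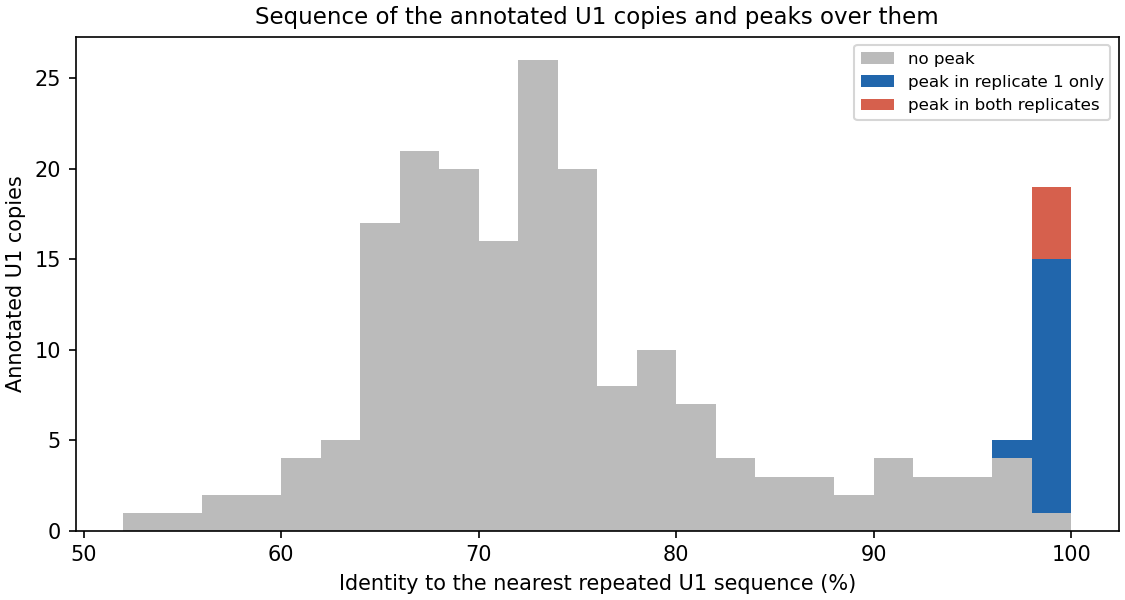
Annotated U1 copies by their identity to the nearest of the 4 repeated U1 sequences (horizontal axis, %), stacked by whether a peak lay over them. The 181 copies under 95% had no peak in either replicate, and 18 of the 19 copies with a replicate 1 peak had 99% or more.

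The copies with a peak lay in 3 clusters and at 3 isolated places. The chromosome 3 cluster spanned 160469 bp and held 8 copies, 5 on the plus and 3 on the minus strand, of which 7 had a replicate 1 peak. The chromosome 12 cluster spanned 41841 bp with 7 copies, all with a peak, and the chromosome 11 pair spanned 4013 bp. Neighbouring starts were 2010 to 48712 bp apart on chromosome 3, 3904 to 13526 bp on chromosome 12 and 3849 bp on chromosome 11. The smallest gap between neighbouring peaks was 558 bp, between chr3-G and chr3-H, so each copy with a peak had a called interval of its own. No other replicate 1 peak lay within the spans of the 3 clusters. The isolated copies were chr4-A, chr18-A and chr19-A.

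A peak in both replicates lay over 4 of the 206 annotated copies, all of them clustered. Among other snRNA genes 15 of 1217 (1.23%) had one in both, and among all other genes 53 of 37104 (0.143%). chr3-A (ENSMUSG00000075978), a U1b copy, had 566 tags in replicate 1 and 149 in replicate 2, or 24.9 and 9.96 RPM. RPM is tags per 1e+06 unique tags of the library, as the list headers name them. chr11-A (ENSMUSG00000070246) had 321 and 80 tags, or 14.1 and 5.35 RPM. chr11-B (ENSMUSG00000070194, chr11:87240218-87240381), of identical sequence, had 377 and 108 tags, or 16.6 and 7.22 RPM. Each of them had a higher RPM in replicate 1 than in replicate 2. chr12-A (ENSMUSG00000075736, chr12:55797769-55797932), which lay outside the stated interval and differed from the chromosome 11 sequence by 1 edit, had 324 and 80 tags, or 14.3 and 5.35 RPM. The ratio of RPM, replicate 2 to replicate 1, was 0.399 at chr3-A (95% exact interval 0.331 to 0.479), 0.378 at chr11-A (0.292 to 0.484), 0.434 at chr11-B (0.347 to 0.539) and 0.374 at chr12-A (0.289 to 0.480). These intervals cover counting error only and overlap each other. The peaks were called separately, and that of replicate 2 covered 67.8% of the replicate 1 peak at chr3-A, 81.6% at chr11-A, 97.6% at chr11-B and 73.5% at chr12-A, so the ratios also move with how much was called. For the 62 other replicate 2 peaks that overlapped a single replicate 1 peak, the ratio had a median of 0.695 and ranged from 0.127 to 1.52. The scores of the 4 U1 copies were 202.98 to 447.82 in replicate 1 and 64.95 to 196.26 in replicate 2, where the p-value cutoff corresponds to a score of 50, and fold enrichments were 9.24 to 10.67 and 5.36 to 8.29.

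The other 15 copies with a peak had one in replicate 1 only, and no copy had one in replicate 2 only. In replicate 2, 0.259% of all genes other than U1 had a peak. Of these 15 copies, 12 were clustered and formed 6 pairs, each of 2 copies on opposite strands whose 250 bases on either side were at least 99.2% identical, a grouping made after the sequences were seen. The pair chr12-B and chr12-G had 409 and 313 tags in replicate 1, and the pair chr12-C and chr12-F had 329 and 369. The pair chr12-D and chr12-E had 337 and 370 tags. On chromosome 12 the 3 pairs were nested within each other, and none of their 6 copies fell below 313 tags. On chromosome 3 the pair chr3-E and chr3-F had 342 and 376 tags and the pair chr3-G and chr3-H had 327 and 291. The pair chr3-B and chr3-C, which carries the sequences named Rnu1b1 and Rnu1b2 by position, had 119 and 136 tags. Tags differed within a pair by 1.10 to 1.31 times, while scores differed by 1.05 to 2.19 times. Reads in sequence that both copies of a pair share may be counted at both, so close tag numbers are not 2 separate measurements. The largest difference of scores was between chr3-G with 188.63 and chr3-H with 86.32.

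The 4 clustered copies found in both replicates were those without such a twin. Their best match among the other copies had flanks 47.6% to 50.4% identical, and those of the isolated copies were 45.2% to 46.4%. chr3-A matched other copies in its upstream flank (98.0%) but not downstream (50.8%). In replicate 1 most paired copies were as high as the unpaired ones. Of the 12, 8 had at least the 321 tags of the lowest unpaired copy, and 3 had a score above the highest unpaired one. In replicate 2 none of the 12 was in the list, whose other peaks had 15 tags or more. The cutoff acts on the score and not on tags. At chr12-A 80 replicate 2 tags gave a score of 64.95, against a cutoff of 50. The list therefore does not show how many tags the 12 copies had in replicate 2.

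**Figure D2:**
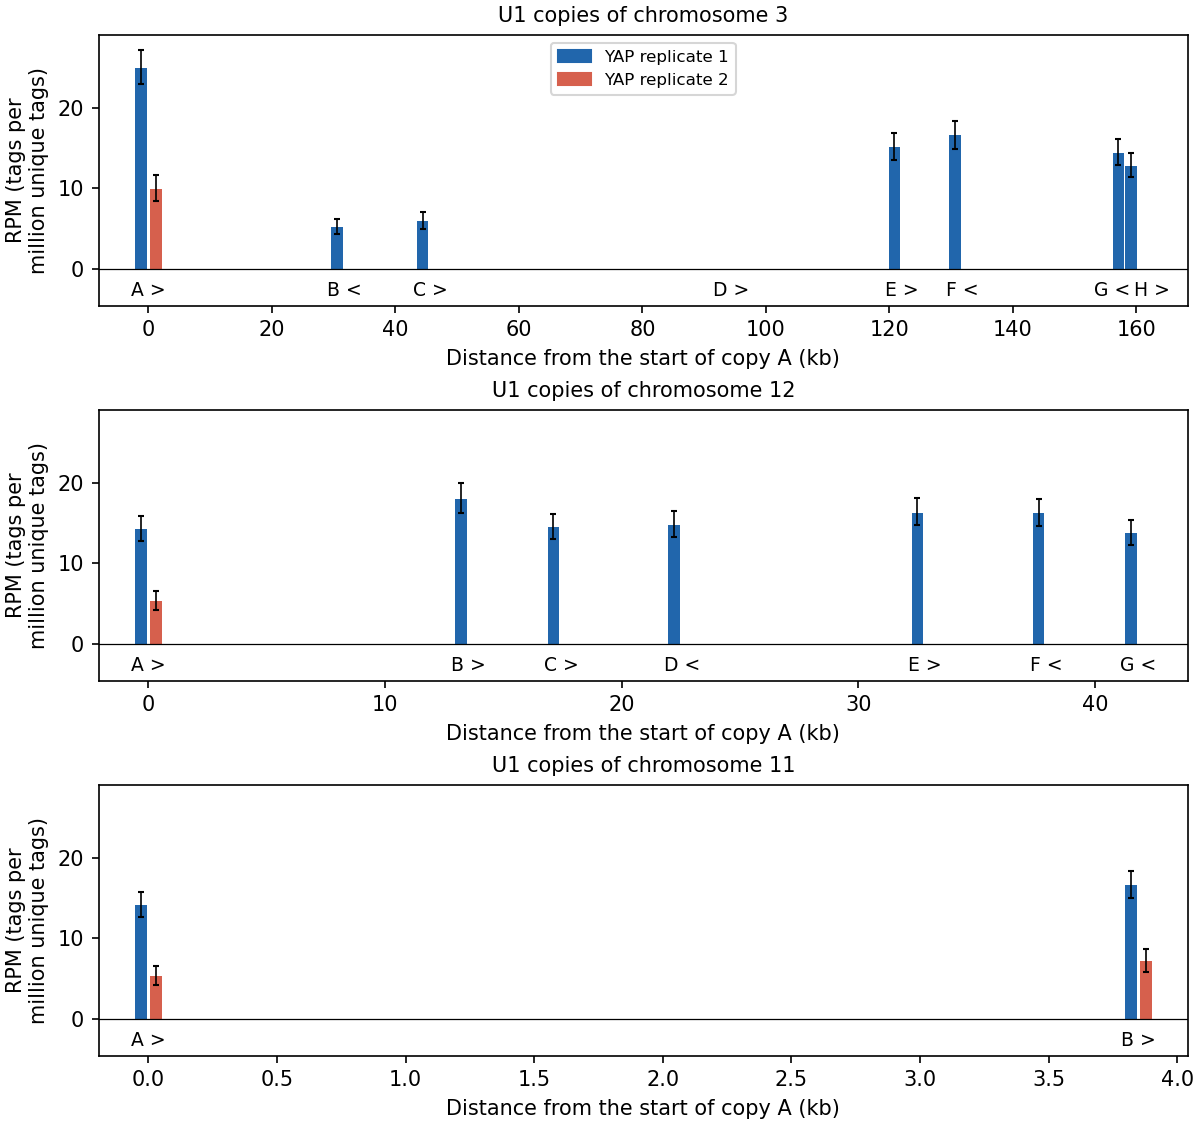
RPM (vertical axis) in the peak over each U1 copy, by distance from the start of the first copy of the cluster (kb), for replicate 1 (blue) and replicate 2 (red) of the YAP samples. Error bars are 95% Poisson intervals that cover counting error only, letters name the copies and arrowheads give their strand. Red bars appear at chr3-A, chr12-A and both copies of chromosome 11, and chr3-D has no bar.

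Repeated sequence was measured as the share of 25-mers of each peak, 25 being the tag size in the headers, that occur once in mm9. The shares in the 4 peaks found in both replicates were 72.9% (chr3-A), 84.9% (chr11-A), 82.7% (chr11-B) and 87.1% (chr12-A) in the replicate 1 list. In the 12 peaks of the pairs they were 0% to 26.4%, with a median of 2.27%. Low shares in the paired copies follow in part from the grouping, which asked for near-identical flanks. With up to 2 mismatches, as the authors mapped, the shares were 51.7% to 73.9% and 0% to 21.4%. The peaks of the isolated copies, found in replicate 1 only, had 80.3% to 86.7% by exact matches and 59.2% to 66.7% with up to 2 mismatches. These shares are over the whole peak and come from the flanks as well as the copy. A tag that falls in sequence shared by both copies of a pair cannot be assigned to one of them, so for these 12 copies the list does not show which copy the chromatin came from.

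A limit of 30%, set after these values were seen, put 12 U1 peaks of replicate 1 below it, of which 0 overlapped a replicate 2 peak, and 7 above it, of which 4 did. Of the other replicate 1 peaks on assembled chromosomes, 3 of 80 below the limit (3.75%) and 53 of 312 above it (17.0%) overlapped a replicate 2 peak. Among the other replicate 2 peaks 23 of 140 lay below the limit, so that list was not without repeated sequence. Whether repeated sequence or depth set the difference between the replicates was not tested.

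**Figure D3:**
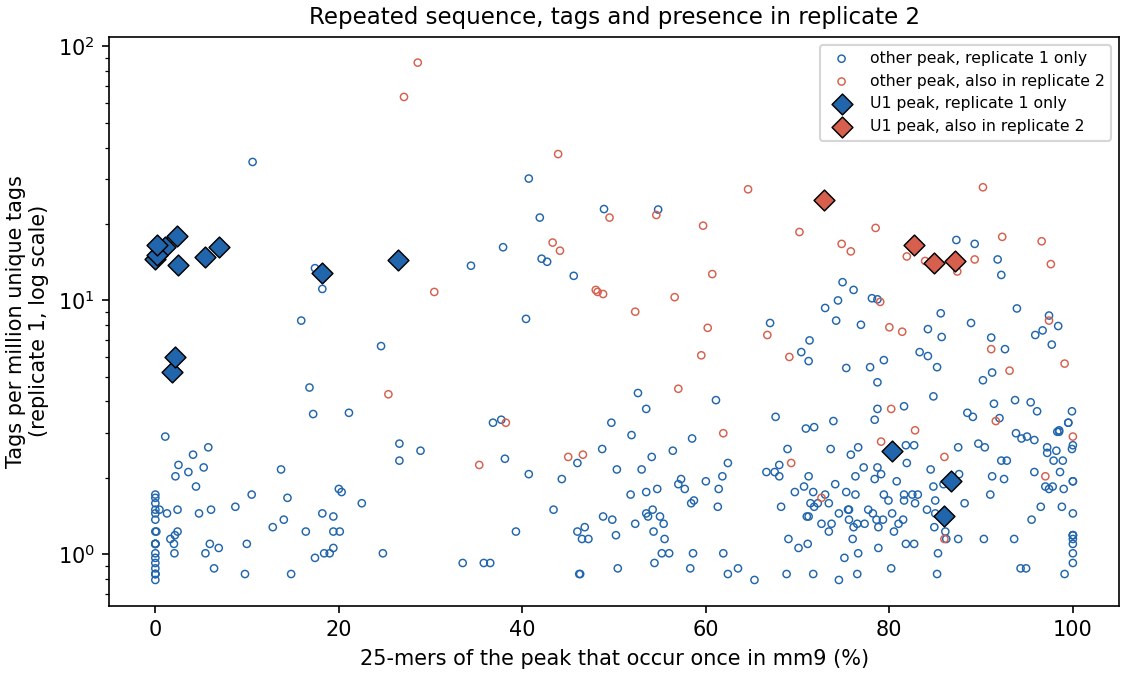
Replicate 1 peaks on assembled chromosomes by the share of their 25-mers that occur once in mm9 (horizontal axis, %) and their RPM (log scale), with U1 peaks as filled diamonds and other peaks as open circles, red where replicate 2 also had a peak. The 12 paired U1 copies lie at the left with 5.24 to 18 RPM, and the 4 red U1 peaks at the right with 14.1 to 24.9.

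Inside the copies with a peak no 25-mer had a single place once mismatches were allowed, so a tag there may come from another place. Over the 19 copies with a peak, each 25-mer of the copy had 4 to 69 places with at most 2 mismatches, and the median per copy was 37 to 46.5. All of them were under the limit of 100 places above which the authors did not keep a read. By exact matches, 5 of them (chr12-A, chr12-F, chr4-A, chr18-A and chr19-A) held at least one 25-mer that occurs once. Flanks varied more. In the 1200 bases before the copy, 22.6% to 89.4% of 25-mers had a single place in the unpaired clustered copies, 0% to 36.3% in the paired ones and 80.4% to 89.5% in the isolated ones. The shares of peak 25-mers with over 100 places were 0% to 29.6%.

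**Figure D4:**
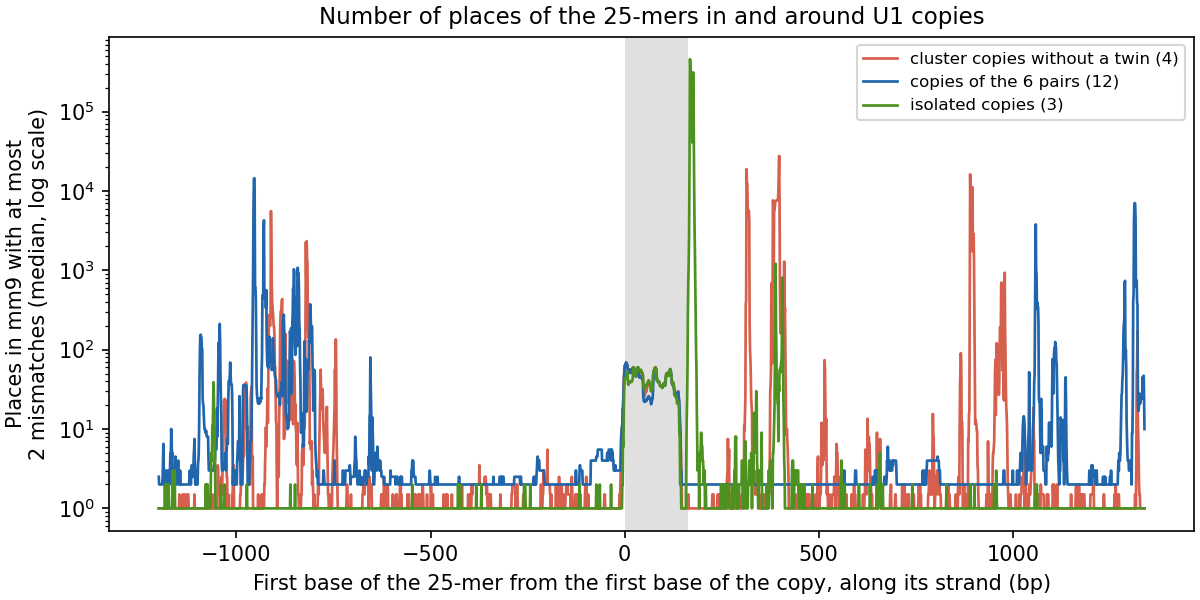
Median number of places in mm9 with at most 2 mismatches (log scale) of the 25-mer that starts at each distance from the first base of the copy (bp), for the 4 clustered copies without a twin, the 12 paired copies and the 3 isolated copies. The grey band is the copy, where all 3 groups rise, and around it the paired copies stay at 2 places or more where the other groups return mostly to 1. Just past the copy the isolated copies rise far higher, to a median of 457757 places at 168 bp.

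Peaks over clustered copies were long and reached past the copy on both sides. Lengths in replicate 1 were 1982 to 2628 bp for the unpaired and 1473 to 2236 bp for the paired copies, against a median of 1245 bp for the 428 other peaks of the list. The median over all 19 was 1911 bp, and that of the 4 replicate 2 peaks was 1787 bp, against 1066 bp for the other peaks there. The longest, over chr12-A, reached 1489 bp upstream and 975 bp downstream of the copy. Tags per kb were 123 to 243 in the unpaired and 73.5 to 210 in the paired copies, against a median of 37.7 for the other peaks. Tag number and length are not independent, since the caller joins enriched stretches.

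No summit of any U1 peak lay upstream of the start of its copy. In replicate 1 the summit lay within the copy in 8 of 19 peaks and past its 3′ end in 11, with a median of 172 bp from the first base. At the unpaired copies the summits were 251 bp (chr3-A), 206 bp (chr11-A), 199 bp (chr11-B) and 172 bp (chr12-A) from the first base in replicate 1. In replicate 2 they were 295, 347, 301 and 355 bp at the same copies. All 8 summits lay downstream of the copy, and those of replicate 2 lay 44 to 183 bp farther. In the paired copies summits were 64 to 325 bp from the start, 5 within the copy and 7 past its end. Within a pair the summit offsets differed by 25 to 97 bp in 5 pairs and by 165 bp between chr3-G and chr3-H, which were 70.7% identical over the copy with 1000 bases on each side, the lowest of the 6 pairs.

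**Figure D5:**
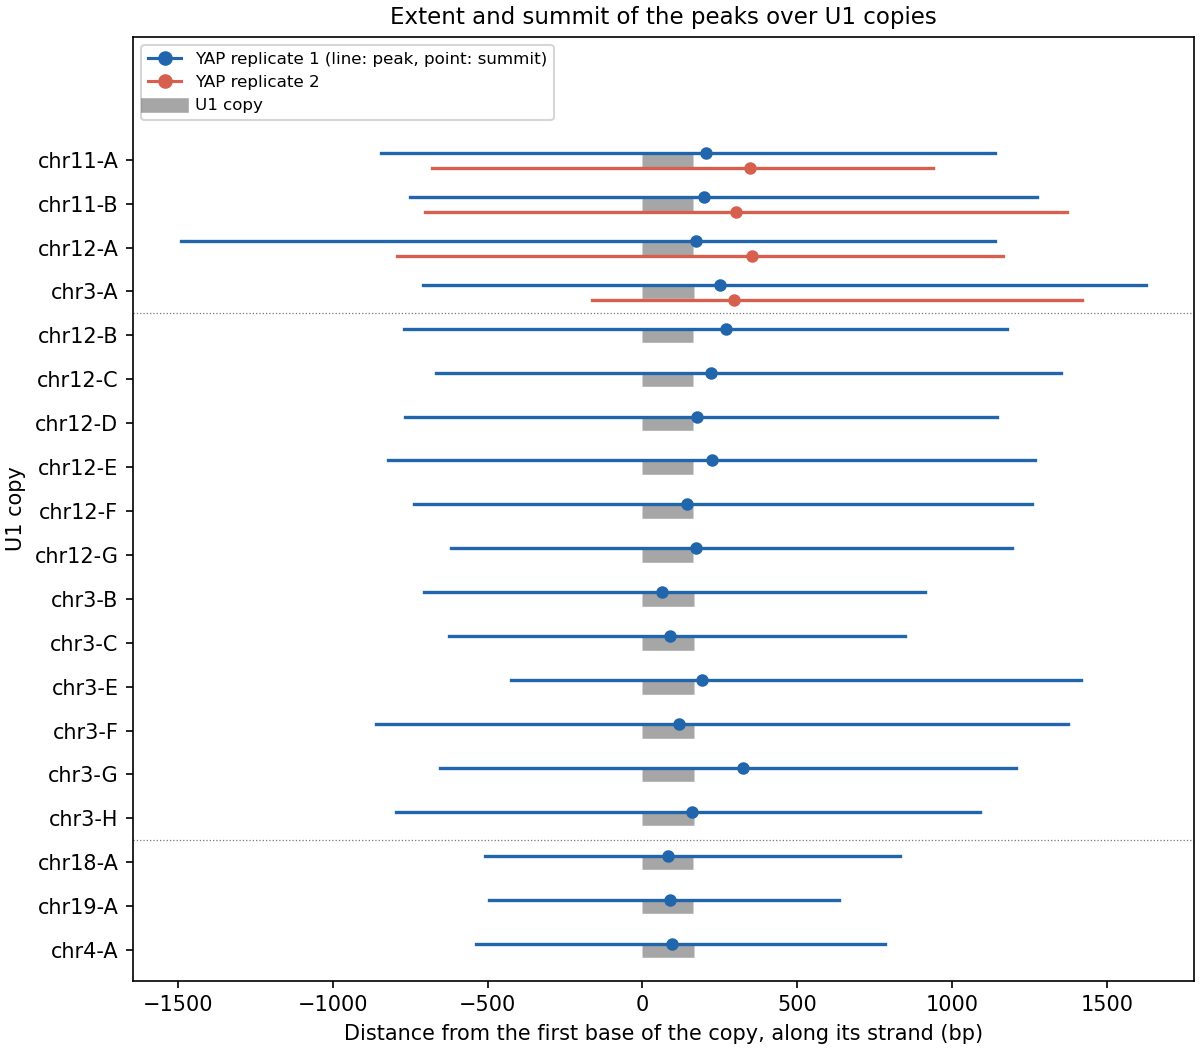
Peaks (lines) and summits (points) of replicate 1 (blue) and replicate 2 (red) over each U1 copy (grey block), by distance from the first base along its strand (bp), with unpaired clustered copies at the top, paired copies in the middle and isolated copies at the bottom. Replicate 2 summits lie to the right of those of replicate 1 at all 4 shared copies, and isolated peaks are the shortest with summits inside the copy.

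The isolated copies had fewer tags and shorter peaks than the clustered ones. chr4-A had 44 tags, chr18-A 58 and chr19-A 32, or 1.41 to 2.56 RPM, all below the 5.24 RPM of the lowest clustered copy. Their peaks were 1129 to 1340 bp long with 28.3 to 43.3 tags per kb, close to the medians of other peaks. Fold enrichments were 12.01 to 12.50, below the 12.88 of chr3-E and above those of all other clustered copies (6.77 to 11.39). Scores were lower, 57.77 to 72.68 against 86.32 to 549.70. Summits lay inside the copy, 95, 81 and 88 bp from its start, within the range of the paired copies. The small number of tags limits what the place of these summits shows.

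The sequence before the copies is printed because it is where U1 promoters lie. The 80 bases upstream are shown for the 4 copies found in both replicates, for one copy each of 2 pairs, for the copy of chromosome 3 without a peak and for 2 isolated copies. Capitals mark ACCGT on the strand of the copy, letters chosen after these sequences were seen.

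chr3-A, chr3:96132268-96132347, plus strand: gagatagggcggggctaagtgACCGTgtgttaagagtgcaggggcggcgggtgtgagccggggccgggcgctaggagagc
chr11-A, chr11:87236289-87236368, plus strand: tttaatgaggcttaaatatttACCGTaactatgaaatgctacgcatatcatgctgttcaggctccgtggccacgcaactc
chr11-B, chr11:87240138-87240217, plus strand: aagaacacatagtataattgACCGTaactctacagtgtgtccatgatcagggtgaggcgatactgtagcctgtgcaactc
chr12-A, chr12:55797689-55797768, plus strand: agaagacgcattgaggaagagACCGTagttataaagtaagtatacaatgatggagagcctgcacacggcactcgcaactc
chr12-D, chr12:55820314-55820393, minus strand: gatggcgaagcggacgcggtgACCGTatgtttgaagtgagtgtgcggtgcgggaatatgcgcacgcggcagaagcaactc
chr3-E, chr3:96254289-96254368, plus strand: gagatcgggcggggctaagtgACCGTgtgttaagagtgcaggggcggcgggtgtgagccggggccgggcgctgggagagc
chr3-D, chr3:96226576-96226655, plus strand: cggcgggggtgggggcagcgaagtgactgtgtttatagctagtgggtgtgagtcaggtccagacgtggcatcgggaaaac
chr4-A, chr4:51825520-51825599, minus strand: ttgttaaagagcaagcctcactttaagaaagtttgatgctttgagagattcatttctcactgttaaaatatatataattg
chr19-A, chr19:18807151-18807230, plus strand: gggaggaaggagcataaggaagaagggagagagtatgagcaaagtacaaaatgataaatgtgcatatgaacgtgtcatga

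ACCGT began 59 bases before the start in 15 of the 16 clustered copies with a peak and 60 bases before it in chr11-B, a place where PSEs of snRNA genes are known to lie. It was in the 100 bases before none of the 3 isolated copies and not before chr3-D. The same letters stood at these bases in 22 of 37067 other gene starts (0.0594%), and anywhere from 250 bases before to 50 after the start on either strand in 13.3%. Both the letters and their place were taken from these copies, so nothing is read from this contrast. The 16 copies held 10 distinct upstream sequences of 80 bases, since twins share theirs. A match of letters is a description and not a binding site.

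Motifs of other factors were searched on both strands from 250 bases before to 50 after the start. CATTCC, the core recognised by TEAD, the DNA-binding partner of YAP, was in 0 of the 19 copies with a peak and in 14.7% of other gene starts. Within 100 bp of the replicate 1 summit it was found in 1 of 19 U1 peaks, that of chr3-H, and in 10.2% of 392 other replicate 1 peaks. These windows do not cover the whole peaks. CATTCC also stood within the 40 bases after chr3-B, chr3-C and chr3-G, inside their peaks but outside both windows. The rest of the peaks was not searched. ATGCAAAT, the octamer bound by POU factors such as Oct-1, was in 1 of the 19, chr11-B, and in 2.27% of other gene starts. Twins with near-identical flanks are counted separately here, so the 19 copies are not 19 distinct sequences.

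The bases after the copy are printed to compare clustered with isolated copies, 40 bases each, with the longest run of A in capitals.

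chr11-A, chr11:87236533-87236572, plus strand: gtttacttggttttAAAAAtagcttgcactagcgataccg
chr3-A, chr3:96132514-96132553, plus strand: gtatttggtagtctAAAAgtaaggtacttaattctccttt
chr19-A, chr19:18807395-18807434, plus strand: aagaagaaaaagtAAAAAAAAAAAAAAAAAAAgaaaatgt
chr4-A, chr4:51825315-51825354, minus strand: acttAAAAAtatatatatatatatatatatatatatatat

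In the 20 bases after the copy, 4 to 10 were A in the 16 clustered copies with a peak and 11 to 19 in the 3 isolated ones. The longest run of A within 40 bases was 2 to 6 in the clustered copies, and 5 (chr4-A), 19 (chr19-A) and 22 (chr18-A) in the isolated ones. U1 pseudogenes made by reverse transcription are known to end in runs of A.

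Near-identical copies without a peak were few. Of the 25 copies with an identity of at least 95%, 6 had no peak in either replicate, with identities of 95.1% to 99.4%. chr3-D (chr3:96226656-96226820) was the only copy of the chromosome 3 interval without a peak. It had an identity of 97.0%, or 5 edits, and the nearest replicate 1 peak was 27288 bp from its first listed base. Its upstream 250 bases were at most 56.4% identical to those of any clustered copy with a peak. In the other 5, on chromosomes 1, 2, 3, 6 and 18, that identity was 43.2% to 48.4%, and in the isolated copies with a peak it was 44.8% to 50.4%. The 6 copies had 9 to 17 A in the 20 bases after their end. Median places of their 25-mers were 36 to 46.5, within or just below the range of the copies with a peak. These features did not separate the 3 isolated copies with a peak from the near-identical copies without one.

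Other annotated genes shared some of these peaks. The summits over both copies of chromosome 11 lay in introns of Tex14, a gene of germ cell intercellular bridges, on the same strand, and the peak of chr11-B touched an exon of it in both replicates. The replicate 1 peak of chr12-A reached 605 bp into Eapp, whose start lay 885 bp from that of the copy on the other strand, while the replicate 2 peak began 92 bp before the start of Eapp. The peak of chr3-E lay over an intron of BC107364, on the other strand.

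The proteins that U1 snRNA works with had no peak near their genes. Of the 10 genes of the U1 snRNP (Snrnp70, Snrpa and Snrpc, which are specific to it, and the Sm genes Snrpb, Snrpd1, Snrpd2, Snrpd3, Snrpe, Snrpf and Snrpg) 0 had a peak within 5 kb of the start in either replicate, where 0.617% of coding genes had one in replicate 1 and 0.165% in replicate 2. The nearest was at Snrpb, 99189 bp away in replicate 1. Of 15 genes of snRNA transcription and 3′ end formation (Snapc1 to Snapc5, Pou2f1, Zfp143, Tbp, Gtf2b, Gtf2a1, Ice1, Ice2, Ell, Ints9 and Ints11) 0 had one, the nearest being at Gtf2a1, 116549 bp away. At these background shares a count of 0 says little for lists of this length.

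Other snRNA families differed widely in the share of copies with a replicate 1 peak. For U2 it was 9 of 51 genes and for U5 7 of 10, both spliceosomal RNAs made by RNA polymerase II, with 5 of each in both replicates. For U4 it was 2 of 43, for U11 1 of 5, for U12 1 of 6, for U7 1 of 116 and for U4atac its single gene. For U3, a small nucleolar RNA, it was 5 of 47. For U6, made by RNA polymerase III, it was 1 of 936, and no peak lay over U8, U6atac or 7SK genes. These names include pseudogenes in unequal numbers, so the shares are not comparable between families.

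In all, the 19 U1 peaks held 5440 tags, or 0.0240% of the 22696949 unique tags of replicate 1 (95% Wilson interval 0.0233% to 0.0246%), over 35438 bp. The 4 peaks of replicate 2 held 417 tags, or 0.00279% of 14965024 (0.00253% to 0.00307%), over 7230 bp. They were 4.25% and 2.60% of the peaks and held 11% and 2.49% of the tags within peaks, so U1 took a larger part of the list in replicate 1. These sums move with how many copies were called in each list.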

How the data were processed

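E14Tg2a cells were profiled by ChIP-Seq against YAP in 2 replicates. The authors mapped reads to mm9 with bowtie, keeping up to 100 places and at most 2 mismatches per read, weighted alignments by the inverse of the number of places, and called peaks with MACS without a control library (p-value cutoff 1e-05, tag size 25, band width 300, per the file headers). The tag counts, the score (10 times −log10 of the p-value), the ratio called fold enrichment, and peak lengths and summits are values the authors deposited for each replicate. How repeat runs were combined is not given in the sources used here. Unique tags were 22696949 and 14965024, of 27762264 and 18187551 total tags. The term is that of the headers and is not the same as 25-mers that occur once, since reads with up to 100 places were kept.

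From these, peaks were matched to genes by overlap of at least 1 bp, and summits were placed along each copy with an uncertainty of 1 bp in their counting. RPM values divide the deposited tag count by the unique tags. Intervals cover counting error only and treat each tag as a separate read. Places of 25-mers were counted over the whole NCBIM37 genome, which is mm9. Identities are 1 minus edits over the longer length. Named genes are copies with a peak in both replicates or in the intervals, genes under member peaks, and the listed snRNP, transcription and snRNA genes. An item under 1 member peak is not reported here. Members and lists were chosen with earlier results of these data known. Alternatives raised the score to 100 or the fold enrichment to 5, changed the overlap, found copies by BLAST 2.17.0 or used single replicates. Functions were tested on simulated sequence. Tools were edlib, scipy 1.17.1, numba 0.67.0, pandas 2.3.3 and Python 3.11.15.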

Additional observations from a re-analysis of the deposited data

How the results depend on the processing

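No paired analysis was possible because only peak lists of the YAP group were analysed here and no result comes from a test. Of 39 values under an alternative, 28 stayed within 1.5 times the reported count or within the spread of the replicates. Several could not change, since every member peak lay over a U1 gene and the lowest fold enrichment was 5.36. The spread was the standard deviation of the 2 replicate values. By it, replicate 2 alone always counted as moved for medians and the share of tags. With a score of at least 100, 15 copies had a peak in replicate 1, 1 in replicate 2 and 1, chr3-A, in both. With the summit required inside the gene, 8 copies had a peak in replicate 1, 0 in replicate 2 and 0 in both, since the summits at the shared copies lie past the 3′ end. Used alone, the lists gave 4 to 19 copies. From the replicate 2 list alone the median summit offset was 324 bp, the median length 1787 bp, the median share of unique 25-mers 84.3% and the share of tags 0.00279%. Copies found by sequence, 35 places of at least 150 aligned bases and 90% identity, gave the same counts of 19 and 4. An identity of at least 95% instead of 99% gave 19 copies with a peak instead of 18. With no control library in the peak calling and no input analysed here, no enrichment over input can be given. The shallower replicate 2 limits what the absence of a peak there shows.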
